A study of Mus musculus with 14 samples.

Results

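The TCF-LEF transcription factor genes Tcf7, Tcf7l1, Tcf7l2 and Lef1 and the Wnt target gene Axin2 were examined for binding of SIM2, NANOG, OCT4 and the Mediator subunits MED1 and MED12 in mouse embryonic stem (ES) cells. Every peak of the 8 ChIP-seq peak lists whose centre lay within 100 kb of 1 of the 5 gene bodies was taken, with gene bodies from GENCODE vM1 on mm9. This gave 23 of the 24416 peaks in all lists, and they formed 20 places when peaks with centres within 100 bp were joined. FLAG ChIP had been done in 3 ES clones named A6, B8 and C4, which carry a Sim2-FLAG transgene followed by Venus in the ROSA-TET locus, and in their parental line EB3, which lacks the Sim2-FLAG transgene. All 4 lines were grown without tetracycline for 26 h, which switches the transgene on, so SIM2 was measured only under forced expression. For NANOG, OCT4, MED1 and MED12 a single library each was analysed here, from clone A6 under the same induction. SIM2 binding thus had 3 replicates, 1 for each clone (each line a single isolate), and the libraries of the other factors had none.

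The TCF-LEF proteins are high mobility group box factors that bind DNA and recruit β-catenin when a Wnt ligand has stopped its destruction. Without β-catenin they hold Groucho/TLE corepressors at the same genes. In ES cells TCF7L1 acts mainly as a repressor that restrains the self-renewal genes, whereas TCF7 and LEF1 act mainly as activators with β-catenin. AXIN2 is a scaffold of the β-catenin destruction complex and its gene is a direct target of the pathway, which makes it a negative feedback arm. SIM2 is a bHLH-PAS factor that pairs with ARNT on DNA.

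NANOG had at least 1 peak near all 5 genes, and SIM2 had a peak in at least 1 clone near all but Tcf7l2. OCT4, MED12, SIM2 in clone C4 and the EB3 control had no peak near any of the 5 genes. The lists held 15 NANOG peaks, 5 SIM2 peaks of A6, 2 SIM2 peaks of B8 and 1 MED1 peak in these windows. Only 1 place, in an intron of Tcf7l1, met the definition of a SIM2 site used here, which asks for peak centres of at least 2 clones within 100 bp and no EB3 peak there.

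The counts were set beside those of all 22367 protein-coding genes. A NANOG peak lay within 100 kb of 67.6% of protein-coding genes, against 5 of 5 here. A SIM2 peak of A6 lay near 23.0% of genes, against 4 of 5 here, and a SIM2 peak of B8 near 19.8%, against 2 of 5. The shares for the lists without a peak here were 6.06% for SIM2 in C4, 1.14% for EB3, 21.8% for OCT4 and 10.9% for MED12. MED1 peaks lay near 7.98% of genes, against 1 of 5. A SIM2 site in at least 2 clones lay near 13.4% of genes, and a place where at least 2 different factors coincided lay near 29.3%, against 1 and 2 of the 5 genes. With 5 genes of unequal length, no test was made of these counts.

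**Figure D1:**
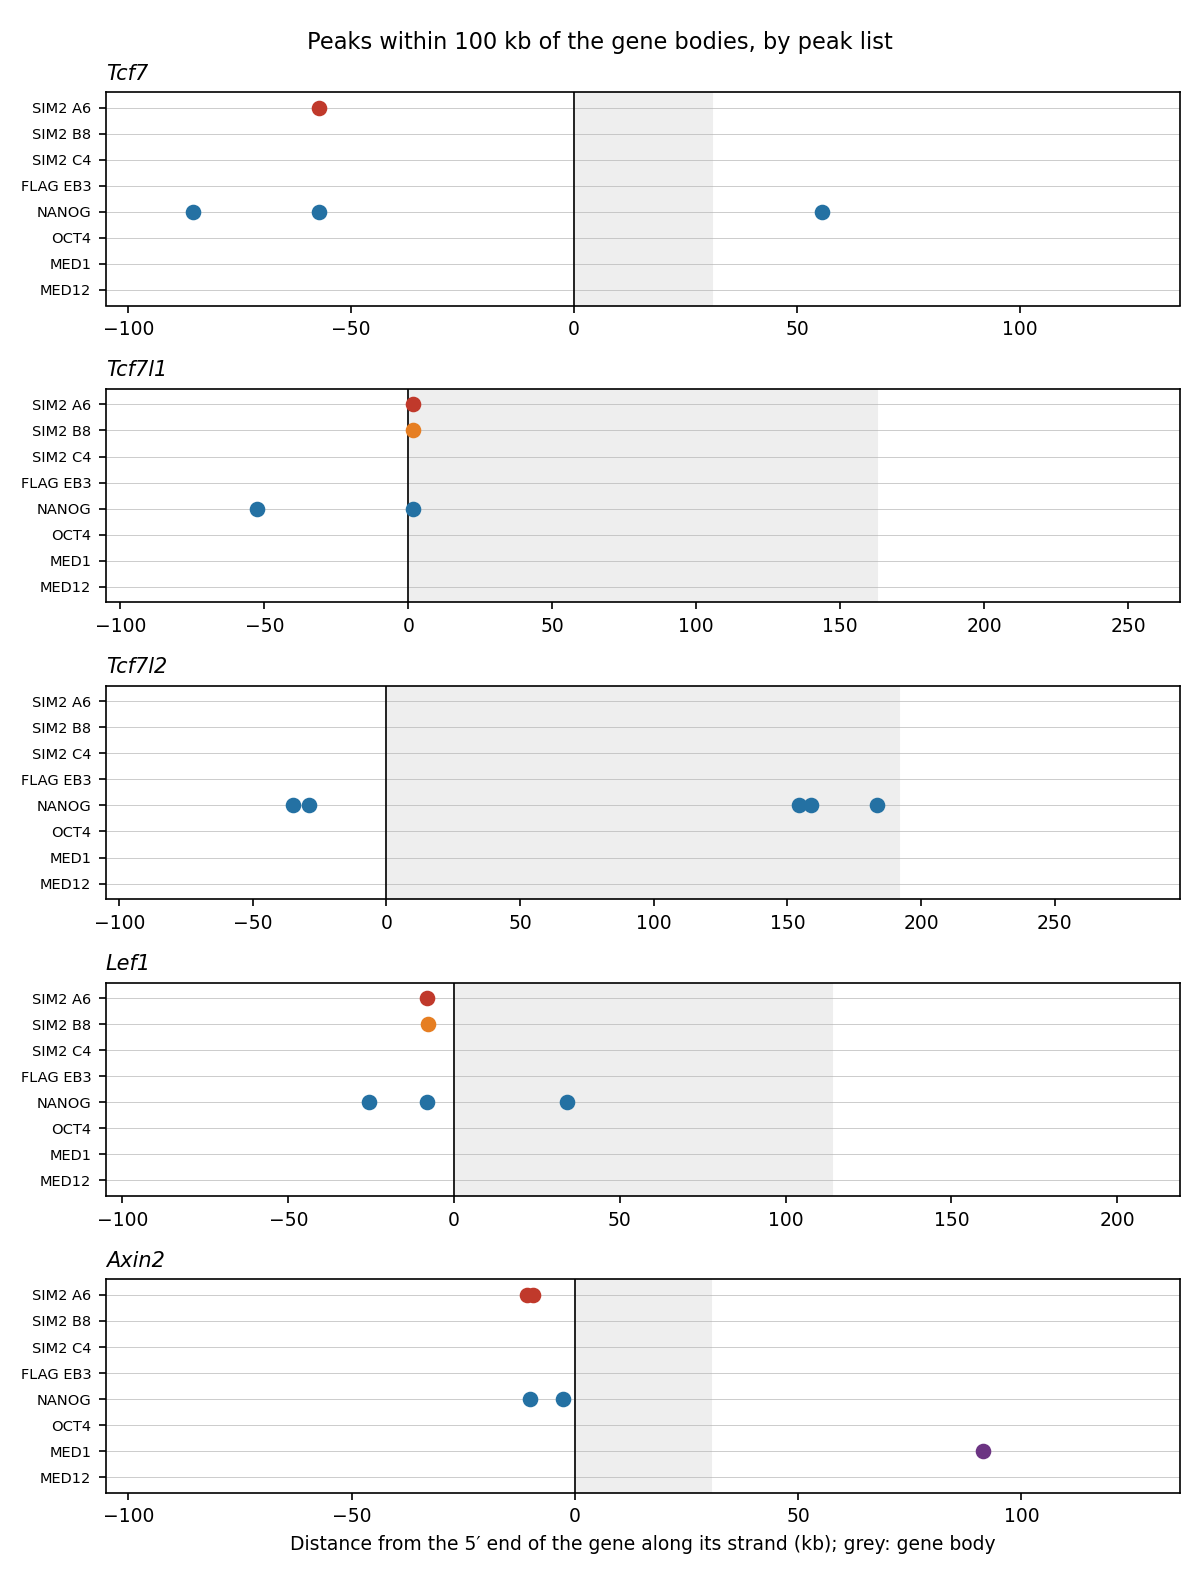
Peaks of the 8 lists (rows, 1 point a peak) near each gene, by distance in kb of the peak centre from the 5′ end of the gene along its strand. The grey band is the gene body and the black line its 5′ end. NANOG peaks appear in all 5 panels, SIM2 peaks of A6 and B8 stand together at Tcf7l1 and Lef1, and the rows of SIM2 C4, EB3, OCT4 and MED12 are empty.

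The sequences of 5 places are shown because the findings turn on them. They were read from the mm9 genome on the plus strand, and capitals mark exact matches to the motifs searched. The Tcf7l1 intron (chr6:72737424-72737623) is the SIM2 site in 2 clones that NANOG shared, and the Tcf7 upstream place (chr11:52153703-52153902) is where A6 SIM2 and NANOG coincided. The other 3 were chosen after their values were seen: the Lef1 upstream place with overlapping NANOG, A6 and B8 peaks (chr3:130805200-130805499), the stronger A6 peak upstream of Axin2 (chr11:108770902-108771101), and the strongest NANOG peak of Tcf7l2 (chr19:55787305-55787504). Capitals mark CCATTA, a NANOG motif, in the Tcf7l1 intron. They mark ACGTG, the core bound by bHLH-PAS dimers, at Lef1. At Tcf7l2 they mark first the octamer ATGCAAAT, bound by OCT4, and then GGGTGTGG, bound by KLF factors.
Tcf7l1 intron: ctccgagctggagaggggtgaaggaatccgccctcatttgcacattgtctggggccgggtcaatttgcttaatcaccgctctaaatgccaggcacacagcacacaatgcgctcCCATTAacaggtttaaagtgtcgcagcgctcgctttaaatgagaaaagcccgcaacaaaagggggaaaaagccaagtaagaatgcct
Tcf7 upstream: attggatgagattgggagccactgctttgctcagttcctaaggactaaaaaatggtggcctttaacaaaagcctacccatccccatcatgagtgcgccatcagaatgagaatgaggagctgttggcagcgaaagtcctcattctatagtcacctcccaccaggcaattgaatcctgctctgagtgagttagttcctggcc
Lef1 upstream: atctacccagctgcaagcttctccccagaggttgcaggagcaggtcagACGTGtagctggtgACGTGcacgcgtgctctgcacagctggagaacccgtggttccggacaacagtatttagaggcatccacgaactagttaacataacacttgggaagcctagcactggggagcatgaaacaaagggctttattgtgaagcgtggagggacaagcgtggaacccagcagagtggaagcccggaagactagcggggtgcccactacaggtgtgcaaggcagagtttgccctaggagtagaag
Axin2 upstream: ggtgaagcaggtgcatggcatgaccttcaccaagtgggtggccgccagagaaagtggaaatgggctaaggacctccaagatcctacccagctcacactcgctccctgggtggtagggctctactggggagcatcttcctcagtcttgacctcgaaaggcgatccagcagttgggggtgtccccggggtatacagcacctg
Tcf7l2 upstream: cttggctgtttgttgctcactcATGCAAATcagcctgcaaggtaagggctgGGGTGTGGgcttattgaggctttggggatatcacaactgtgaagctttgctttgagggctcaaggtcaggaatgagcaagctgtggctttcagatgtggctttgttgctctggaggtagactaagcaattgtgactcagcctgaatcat

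Each list gives for a peak a normalized tag count, which the authors scaled to library size, the total tags and the fold over the input DNA of the same cells. The normalized tag counts of different lists are not on the same scale, since the median ratio of normalized to total tags was 0.841 in A6 and between 0.28 and 0.393 in the other lists. Within a list the ratio also varied from peak to peak, so a normalized tag count is not its total tags rescaled. Each peak was therefore placed by its rank in its own list, where rank 1 is the highest and tied peaks take the same rank. Total tags in B8, NANOG and MED1 are whole counts, and their exact Poisson 95% intervals cover counting error only. The steps between normalized tag counts corresponded to 12.9 to 31.6 M (megatags) in the 8 libraries if scaled to 10 M, 12.9 M for NANOG and 31.6 M for OCT4. As a check of the ES cell label, peaks of both NANOG and OCT4 lay within 100 kb of Nanog, Pou5f1, Sox2, Klf4 and Esrrb, 4 to 9 for NANOG and 1 to 5 for OCT4. Over all protein-coding genes a NANOG peak lay near 67.6% and an OCT4 peak near 21.8%, so the presence of NANOG peaks is a weak check.

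Tcf7l1 (ENSMUSG00000055799.6, chromosome 6, 72576372 to 72739248, minus strand), the repressor of the family, was the only gene of the 5 with a SIM2 site in 2 clones. The A6 peak (72737427 to 72737579) had a normalized tag count of 13.7 and was 9.03 times the input, rank 617 of 2387. The B8 peak (72737419 to 72737579) had 6.8, from 20 tags (12.2 to 30.9), and was 8.51 times the input, rank 290 of 2137. Their centres were 4 bp apart, and no C4 peak was listed there. Both stood in the upper part of their lists, above the median.

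The NANOG peak at this site (72737484 to 72737650) had a normalized tag count of 7.0, from 28 tags (18.6 to 40.5), and was 12.91 times the input. It was the highest of the 15 NANOG peaks by total tags, and so also by fold, since all 15 had the same input of 2.2 tags. Its centre lay 64 bp from that of A6 and 68 bp from that of B8. By normalized tag count it ranked 5658 of 14815 and by fold 2461. The site lay 1.75 kb inside the gene from its 5′ end, in intron 3 of 11 of the longest coding transcript, and 742 to 810 bp downstream of the start of a shorter Tcf7l1 transcript. It was thus just outside the promoter window, taken as 1 kb upstream to 300 bp downstream of a start site.

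Among the SIM2 sites of the whole genome the Tcf7l1 site was in the middle. Of the 1229 sites in at least 2 clones, 1222 had an A6 peak, and 570 of these (46.6%) had an A6 tag count of 13.7 or more. A C4 peak was listed at 346 of the 1175 sites with both A6 and B8 (29.4%), so its absence at Tcf7l1 was the more usual case. The C4 list is also the shortest of the 3, with 631 peaks. OCT4, MED1 and MED12 were not near this site, their closest peaks lying 5620, 5090 and 5550 kb away. A second NANOG peak lay 52.5 kb upstream in an untranslated region of Kcmf1, with a normalized tag count of 3.9 from 11 tags (5.49 to 19.7), 5.07 times the input and rank 11998.

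Lef1 (ENSMUSG00000027985.8, chromosome 3, 130813389 to 130927274, plus strand), an activator of the family, had peaks of both A6 and B8 that fell just short of the 100 bp definition. The A6 peak (130805269 to 130805421) had a normalized tag count of 14.6, was 9.60 times the input and ranked 504, the highest of the 5 A6 peaks. The B8 peak (130805379 to 130805539) had 6.1, from 14 tags (7.65 to 23.5), was 5.96 times the input and ranked 410. The centres were 114 bp apart and the peaks overlapped by 43 bp.

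A NANOG peak stood on the other side of the A6 peak at Lef1. It (130805157 to 130805323) had a normalized tag count of 9.3, from 23 tags (14.6 to 34.5), was 10.60 times the input and ranked 3562, the highest rank of the 15 NANOG peaks. Its centre lay 105 bp from that of A6, with an overlap of 55 bp, and 219 bp from that of B8, with a gap of 56 bp. The 3 peaks followed each other 8.15 to 7.93 kb upstream of the gene in the order NANOG, A6, B8. At 100 bp none of the 3 coincided, and with centres within 200 bp, or with peaks of 2 clones overlapping by at least 1 bp, the A6 and B8 peaks made a second SIM2 site. The overlap rule was chosen after seeing the data.

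The 2 other NANOG peaks of Lef1 were weaker. That 25.6 kb upstream had a normalized tag count of 4.6 from 11 tags and that 34.0 kb inside the gene, in intron 3 of 9, had 5.4 from 13 tags. No SIM2 peak coincided with either.

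**Figure D2:**
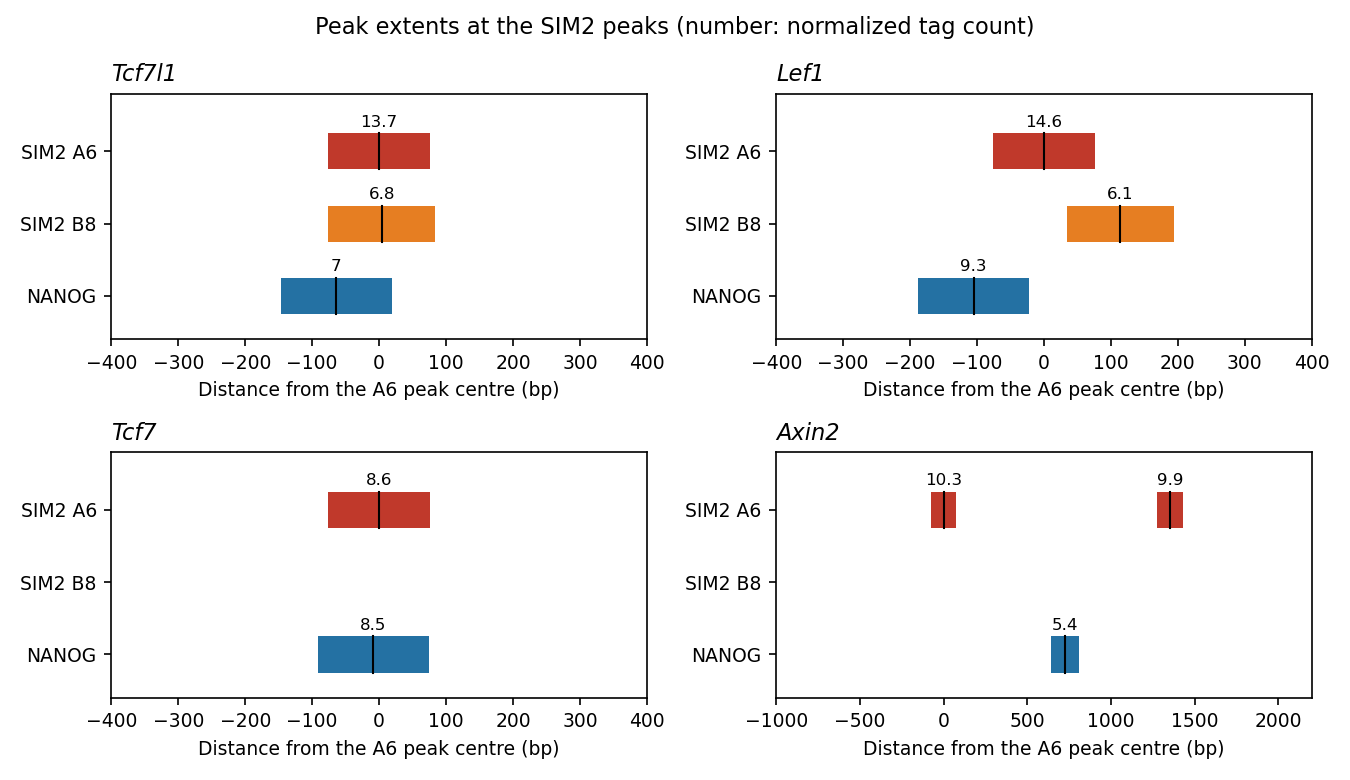
Peak extents (bars) and centres (black lines) of SIM2 in A6 and B8 and of NANOG at the SIM2 peaks of Tcf7l1, Lef1, Tcf7 and Axin2, by distance in bp from the A6 peak centre along the gene's strand (for Axin2 from the A6 peak farther upstream, on a wider axis), with the normalized tag count above each bar. The A6 and B8 centres are 4 bp apart at Tcf7l1 and 114 bp apart at Lef1, B8 has no peak at Tcf7 or Axin2, and both Axin2 A6 peaks stand apart from the NANOG peak.

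Tcf7 (ENSMUSG00000000782.8, chromosome 11, 52065873 to 52096681, minus strand), which encodes TCF1, had a place shared by SIM2 of 1 clone and NANOG. The A6 peak (52153721 to 52153873) had a normalized tag count of 8.6, was 5.64 times the input and ranked 2142 of 2387, the lowest of the 5 A6 peaks. The NANOG peak (52153723 to 52153889) had 8.5, from 20 tags (12.2 to 30.9), was 9.22 times the input and ranked 4147. The centres were 9 bp apart and the overlap was 151 bp. Neither B8 nor C4 had a peak there, and the closest of either lay 702 kb away.

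The Tcf7 place was 57.1 kb upstream of Tcf7, and closer to another gene. It lay 20565 bp upstream of the start of Vdac1, which encodes a channel of the outer mitochondrial membrane. The NANOG peak 85.4 kb upstream of Tcf7 (4.6 normalized tags, 12 tags) lay in intron 1 of 8 of Vdac1 itself. A NANOG peak 55.5 kb downstream of the Tcf7 start, with the same values, lay 4329 bp upstream of Skp1a, which encodes a subunit of SCF ubiquitin ligases. All 4 peaks of the Tcf7 window therefore had the start of another gene as their nearest, whereas the other 19 of the 23 peaks had a start of the gene itself nearest, among protein-coding transcripts. These counts depend on gene spacing, and no share over all genes was taken. The windows of Tcf7, Tcf7l1, Tcf7l2, Lef1 and Axin2 held 3, 6, 0, 3 and 1 other protein-coding genes.

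Tcf7l2 (ENSMUSG00000024985.11, chromosome 19, 55816300 to 56008144, plus strand), which encodes TCF4, had only NANOG peaks, 5 in all, and no other protein-coding gene had its body in this window. The strongest (55787321 to 55787487), 28.9 kb upstream, had a normalized tag count of 6.2, from 17 tags (9.90 to 27.2), was 7.84 times the input and ranked 6777. Its neighbour 35.0 kb upstream had 3.9 from 10 tags. Inside the gene, peaks in intron 4 of 13, at 154516 and 159006 bp from its start, had 3.1 from 12 tags and 3.9 from 10 tags, and a peak in intron 11, at 183700 bp, had 3.9 from 10 tags. All but the strongest were below the middle of the NANOG list, with ranks from 11998 to 13724. The peak at 154516 bp lay 816 bp downstream of the start of an internal Tcf7l2 transcript.

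Tcf7l2 had the most NANOG peaks of the 5 genes. As many NANOG peaks or more were found near 8.19% of protein-coding genes. Tcf7l2 is also the longest of the 5 genes, with a body of 192 kb. Per length its 1.28 NANOG peaks per 100 kb, just below the 1.3 of Tcf7, were reached by 19.4% of genes. For the others, as many NANOG peaks or more were found near 24.8% of genes for Tcf7 and Lef1, with 3 each, and near 41.4% for Tcf7l1 and Axin2, with 2 each. Over the 1.53 Mb of the 5 windows there were 0.98 NANOG peaks per 100 kb, against 0.558 over the genome. Of the 5 genes, 4 were above the latter. The genome value also covers sequence far from any gene, so it is not a like-for-like base for windows around genes. Among protein-coding genes, a density at least as high was reached by 19.0% for Tcf7, 28.0% for Lef1 and 33.7% for Axin2. For Tcf7l1 that share was larger still.

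The SIM2 site in at least 2 clones nearest to Tcf7l2 lay outside the 100 kb window, at a place singled out after its values were seen. At 250 kb upstream of the gene, inside the body of Vti1a, a SNARE protein gene, peaks of A6, B8 and C4 made a SIM2 site in 3 clones. NANOG there had a normalized tag count of 43.4 and ranked 17 of 14815, OCT4 had 10.1 and ranked 116 of 2532, and MED12 had 4.7 and ranked 790 of 1071, all within 200 bp of the site. The SIM2 peaks had 12.4 (A6), 6.8 (B8) and 4.4 (C4). The start of Vti1a was the nearest, 175 kb away. The only OCT4 peak between 100 and 200 kb of any of the 5 genes was also at Tcf7l2, 198 kb from the body.

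**Figure D3:**
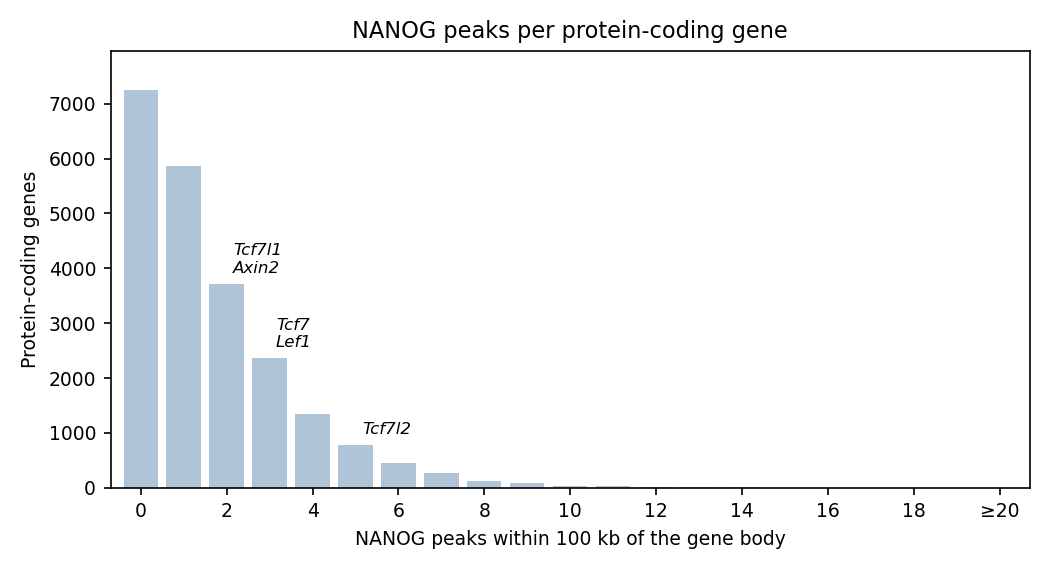
Number of protein-coding genes (bars, of 22367) by the number of NANOG peaks within 100 kb of the gene body, with the 5 genes written above their bars. Tcf7l1 and Axin2 stand at 2 peaks, Tcf7 and Lef1 at 3 and Tcf7l2 at 5, where the distribution thins out.

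Axin2 (ENSMUSG00000000142.9, chromosome 11, 108781663 to 108812097, plus strand), the feedback inhibitor, had 2 A6 peaks and no SIM2 peak of another clone. That farther upstream (108770925 to 108771077) had a normalized tag count of 10.3, was 6.77 times the input and ranked 1391. The other (108772277 to 108772429) had 9.9, was 6.49 times the input and ranked 1561. They lay 10.7 and 9.31 kb upstream of the gene and 1352 bp from each other, and both were below the A6 median of 11.2. The nearest B8 peak to the gene body was 409 kb away.

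A NANOG peak lay between the A6 peaks of Axin2 without touching either. It (108771644 to 108771810) had a normalized tag count of 5.4, from 16 tags (9.15 to 26.0), was 7.38 times the input and ranked 8199. Its centre was 726 and 626 bp from the centres of the A6 peaks. A second NANOG peak 2.74 kb upstream of the gene, the closest of any peak to its start, had 4.6 from 11 tags. These 4 peaks thus formed a group within 11 kb upstream of Axin2 in which no centres coincided at 100 bp.

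The only Mediator peak near the 5 genes was a MED1 peak 61.1 kb past the end of Axin2. This peak (108873041 to 108873255) had the highest normalized tag count of the 762 in the MED1 list, 87.1, from 251 tags (221 to 284), with the next at 78.8 and the median at 5.7. It also had the highest input of the list, 43.1 input tags against a median of 3.4. Its fold over the input was 5.82, rank 168. MED12 had no peak there and the nearest peak of any other list was a NANOG peak 94.2 kb away.

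High input was rare in the MED1 list, where 593 peaks (77.8%) had the lowest value of 3.4. At 16 MED1 peaks the input was above 10 tags, a line drawn after the values were seen, and none of the 16 had a MED12 peak within 100 bp, against 227 of all 762 (29.8%). The part of the input coverage in the MED1 value at Axin2 was not tested. All the other 22 peaks near the 5 genes were at the lowest input value of their lists, 1.8 tags in A6, 2.4 in B8 and 2.2 in NANOG, as were 87.1%, 92.3% and 93.9% of those lists.

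**Figure D4:**
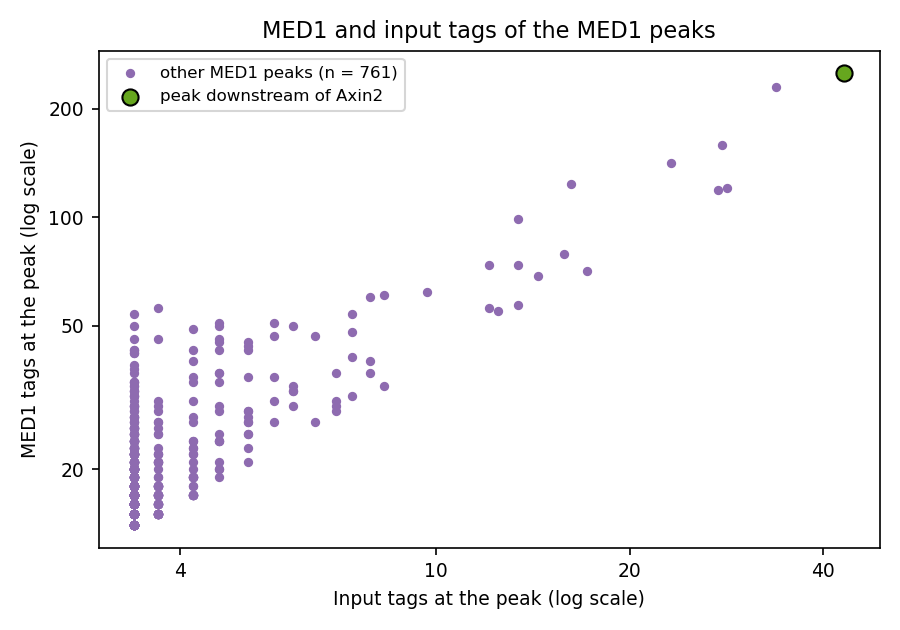
MED1 tags against input tags at the 762 MED1 peaks, both on log axes, with the peak downstream of Axin2 as the large green point. It has the highest value on both axes, 251 MED1 tags and 43.1 input tags, while most of the other peaks stand at the lowest input of 3.4.

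Compared with their own lists, most NANOG peaks of the 5 genes were below the median and both B8 peaks above it. The 15 NANOG peaks had normalized tag counts of 3.1 to 9.3 with a median of 4.6, against 6.2 in the list, and folds of 4.61 to 12.91 with a median of 5.53, against 6.91. Of these, 4 were above the middle of the list, and 0 were among the highest 10%. The 5 A6 peaks had 8.6 to 14.6 with a median of 10.3, against 11.2, and 2 of them, at Tcf7l1 and Lef1, were above the middle. The B8 peaks, at the same 2 genes, had 6.1 and 6.8 against 4.8. The p-values that HOMER gave over the input ran from 1.23e-11 to 2.03e-05 for the A6 peaks, which are those of a peak caller in a single library and not a test between conditions.

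**Figure D5:**
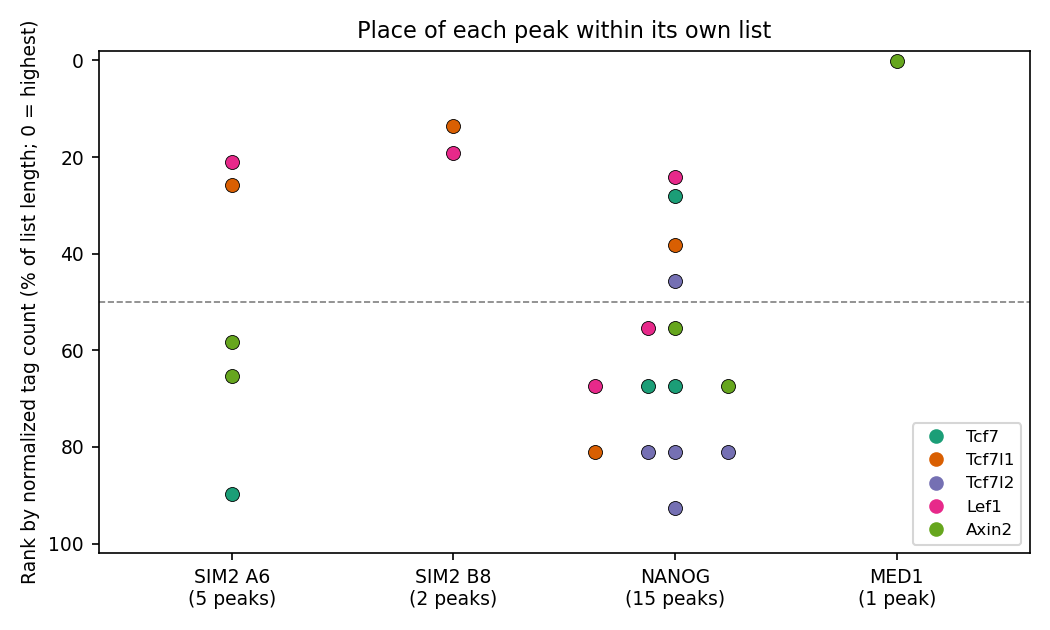
Rank of each of the 23 peaks by normalized tag count, as a percent of the length of its own list, with 0 at the top for the highest peak and 1 point a peak, coloured by gene (points at the same height are spread sideways). The dashed line is the middle of the list. The B8 peaks and the A6 peaks of Tcf7l1 and Lef1 lie above the line, and 11 of the 15 NANOG peaks below it.

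Of the 23 peaks, 0 lay in the promoter window of the 5 genes. In the annotation of GENCODE vM1, 14 were intergenic, 8 intronic and 1 in an untranslated region. Of all 23, 14 lay upstream of the gene they were assigned to and 7 within its body. The shares of all listed peaks in these classes were not counted, so none of these counts is read as a trait of the 5 genes.

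Factors coincided at 2 places, Tcf7l1 and Tcf7. NANOG coincided with 2 of the 5 A6 peaks and 1 of the 2 B8 peaks, against 64.7% of all A6 peaks and 58.7% of all B8 peaks. In the other direction 2 of the 15 NANOG peaks had an A6 peak, against 10.4% of the list. The remaining 13 NANOG peaks had no centre of another factor within 100 bp, and 1 of them, upstream of Lef1, overlapped an A6 peak as described above. OCT4 was at 0 of the 15, against 15.1% of the NANOG list, MED1 at 0 against 1.96% and MED12 at 0 against 5.08%.

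Motifs were searched as exact letters on both strands in 200 bp around each of the 20 places. The TCF-LEF motif, as CTTTGAT or CTTTGAA, was found at 1 place, the NANOG peak 25.6 kb upstream of Lef1, 26 bp from its centre, and it is held by 13.5% of all NANOG peaks and 11.1% of the SIM2 sites. The core ACGTG, at which SIM2 and ARNT are known to bind, had 2 matches at Lef1 (9 and 23 bp from the NANOG centre, and so 96 and 82 bp from the A6 centre on the side away from B8). Both matches lay inside the NANOG peak and just outside the A6 peak, so no called SIM2 peak at Lef1 held the core. The core was not found in the window of the Tcf7l1 site or of the A6 peaks of Tcf7 and Axin2, and 14.1% of the SIM2 sites and 5.41% of the NANOG peaks hold it. At least 2 matches that share no base, as at Lef1, are held by 0.236% of the NANOG peaks and 0.88% of the A6 peaks. This count was not planned and follows the pattern at Lef1. Where matches may share bases, the shares are 1.38% and 3.02%. In a window of 100 bp both matches stayed at the NANOG peak of Lef1 and none at its A6 peak. The third place with the core was the MED1 peak at Axin2, through the E-box CACGTG, which contains the core. That E-box is held by 1.25% of NANOG peaks, and its share of the MED1 peaks was not counted.

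The other motifs were as sparse. The octamer, as ATGCAAAT or ATGCTAAT, was found at the strongest NANOG peak of Tcf7l2, where no OCT4 peak was listed, and 12.1% of the SIM2 sites hold it. The KLF motif, as GGGTGTGG or GGGCGTGG, was found there too and at the NANOG peak in Kcmf1, against 4.57% of NANOG peaks. The NANOG motif CCATTA was found at the Tcf7l1 site, 16 bp from its centre, and at the 2 NANOG peaks in intron 4 of Tcf7l2, against 11.6% of the NANOG list. The SOX motif CATTGTT was at 0 of 20 places, against 8.53%.

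Of the other Wnt pathway genes, 80 were listed by role, and all 80 were in the annotation. A NANOG peak lay near 60 of them (75.0%), a SIM2 peak of A6 near 24 (30.0%), of B8 near 22 (27.5%) and of C4 near 4 (5.0%), and an EB3 peak near 2 (2.5%). OCT4 was near 24 (30.0%), MED1 near 7 (8.75%) and MED12 near 9 (11.2%). The median number of NANOG peaks per gene was 1, as over all protein-coding genes. A SIM2 site in at least 2 clones lay near 15 (18.8%), of which 5 of 22 were ligands, 4 of 16 receptors, 2 of 5 β-catenin cofactors, 1 of 5 corepressors, 1 of 15 inhibitors and 2 of 7 targets. None of the 7 genes of the destruction complex and none of the 3 other cytoplasmic genes (Dvl1, Dvl2 and Dvl3) had such a site. Over all protein-coding genes the share was 13.4%, so with so few genes none is not unusual. A place with at least 2 factors lay near 30 (37.5%). Genes whose windows overlap can share peaks and were each counted, here as over all genes. The ligand genes Wnt3 and Wnt9b had the same highest values in every list, 14.2 in A6, 8.2 in B8 and 10.8 in NANOG. The shares of all protein-coding genes given above were lower than those of the Wnt list for each list of peaks but C4, and no test was made.

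NANOG peaks higher than those of the 5 genes were listed at other genes of the pathway, which were chosen by that value. Among the 21 genes of the list with a SIM2 site in 2 clones or a Mediator peak, the 12 with the highest NANOG peaks were Myc (24.8), Lgr4 (20.9), Znrf3 (19.4), Fzd7, Ror2 and Sfrp2 (18.6 each), Tle4 (17.8), Wnt8a (15.5), Ccnd1 and Notum (13.9 each), Fzd5 (13.2) and Axin1 (12.4), all as normalized tag counts and all above the 9.3 at Lef1. Genes were required to carry SIM2 or Mediator to be named here, which the 5 studied genes were not.

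Tle4, which encodes a Groucho corepressor that TCF proteins recruit, had the most peaks of the 12. It had 15 NANOG peaks, 4 SIM2 peaks of A6, 2 of B8 and 1 of C4, 2 OCT4, 2 MED1 and 4 MED12 peaks, and its SIM2 site in 3 clones lay at -66.3 kb from its start, with normalized tag counts of 21.0 for A6, 7.5 for B8 and 4.4 for C4. Myc, a Wnt target and proliferation gene, had 7 NANOG peaks with OCT4, MED1 and MED12 but SIM2 in A6 only, at 10.7 and 8.6. Ccnd1, the cyclin D1 gene and another target, had a site of all 3 clones with OCT4 and MED12 75.5 kb from its start, with 20.2 (A6), 6.1 (B8) and 5.9 (C4). Axin1, the constitutively expressed paralogue of Axin2, had no A6 peak, a B8 peak of 5.4 and 2 MED12 peaks.

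The protein-coding genes with the pattern most like each member were sought by the mean absolute difference of log2(highest normalized tag count within 100 kb + 1) over 7 libraries, EB3 left out. For Tcf7 they were Klf8 and Tsc22d3 (0.00), each with a highest value of 8.6 in A6 and 8.5 in NANOG and no peak in the other 5 lists compared. For Tcf7l1 the closest was 4930415O20Rik (0.01), followed by a group that includes Adrm1 and Lama5 (0.02), with 7 genes at or below the latter. For Lef1 they were Fam160b1 and Trub1 (0.01), which share peaks. For Tcf7l2, a gene with NANOG alone, 701 genes were tied at 0.00 and none is named. For Axin2 the nearest, Cdk8, Gm6309 and Rnf6, were far off (0.52), since they share a MED1 peak of 78.8 and have no SIM2 peak. With most values at 0, likeness here says mainly which lists have a peak.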

How the data were processed

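ChIP and input DNA of the lines were sequenced by the authors, who aligned reads to mm9 (BWA), discarded duplicate reads and ran HOMER with an input library as control, 1 for each FLAG ChIP, 1 for OCT4 and NANOG and 1 for MED1 and MED12 (versions not given in the sources used here). The deposited lists hold for each peak a normalized tag count, a signal that the authors scaled to library size, and HOMER's score. They also hold total tags, which the authors deposited as whole counts for B8, C4, NANOG, MED1 and MED12 and as values that are not whole for the others. The deposited fold over the input is a ratio, and its p-value was computed by the authors' peak caller. The 6 input libraries were used only through these columns.

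Peaks were assigned by centre to gene bodies of GENCODE vM1 and coincided when centres lay within 100 bp. No test between conditions was possible, so values are descriptive. Members and lists were chosen with earlier results of these data known. From the Wnt list, genes with a SIM2 site in at least 2 clones or a MED1 or MED12 peak within 100 kb were eligible to be named, and the 12 with the highest NANOG tag count were named, with the 2 most like genes of each member (ties included up to those given). Sequences are of the SIM2 site or strongest shared place of a gene, and others are said to be added. Alternatives covered the window, the merging distance, a minimum fold of 8, the annotation, the ranking, the motif window and leaving out each clone. Python 3.11.15, numpy 2.4.6, pandas 2.3.3, pysam 0.24.0 and matplotlib 3.10.9 were used. On simulated peaks all 184 planted sites were found and 0 of 116 false ones. The planted centres of a site always lay within 100 bp of each other, so the simulation checks only that the code applies its rule. Centres as far apart as those at Lef1 were not simulated.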

Additional observations from a re-analysis of the deposited data

How the results depend on the processing

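A count was taken as unmoved within 1.5 times its value, and a share within its 95% Wilson interval over genes, which is narrow. Of 73 alternative values 24 moved, 10 of them shares of genes. Some of the others could not move. The lists without a peak near the 5 genes stay at 0 in a smaller window, from start sites or at a higher fold. Keeping EB3 peaks could add no site either, as none lay in the windows. Requiring at least 8 times the input left 2 A6, 1 B8, 3 NANOG and 0 MED1 peaks, and 1 place with 2 or more factors. For the 22 peaks at the lowest input of their lists, this fold was in effect a minimum number of tags. The OCT4 count was 1 at 200 kb from the gene body, and the MED1 count 0 at 50 kb. SIM2 sites in at least 2 clones numbered 2 with centres within 200 bp and 2 with peaks of 2 clones overlapping by at least 1 bp, a rule added after seeing the data. Leaving out each clone in turn gave 0 to 1 sites, with 0 without A6 or without B8. Places with 2 or more factors numbered 1 with centres within 50 bp, 3 within 200 bp or with peak edges within 100 bp (added after seeing the data), and 4 within 1000 bp. With all annotated genes the shares with a peak were 20.5% (A6), 18.0% (B8), 5.36% (C4), 0.934% (EB3), 64.0% (NANOG), 20.3% (OCT4), 7.47% (MED1), 9.9% (MED12), 11.8% (SIM2 site) and 27.0% (2 or more factors). The octamer was at 0 places in a window of 100 bp. The distance from transcription start sites, keeping EB3 peaks, and the rankings by fold and score changed no count by over 1.5 times. Most peaks of the A6, B8 and NANOG lists share the same input value, so ranking by fold is there close to ranking by total tags. No paired analysis was possible because no result comes from a test. Each SIM2 clone has its own input library, which enters only through the values over the input. The NANOG peaks rest on 10 to 28 tags each, so their order within the list is loose, and a missing peak says only that none was called at this depth.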
